A study of Mus musculus with 12 samples.

Results

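Inflammasome genes were followed in RNA-seq of mouse back skin. They were the 8 genes with the symbols Nlrp3, Nlrc4, Nlrp10, Aim2, Pycard, Casp1, Casp4 and Il18, taken by symbol out of 18505 genes in the deposited table. All 8 were found, and all 8 passed the limit for testing, a mean level of at least 0.1 FPKM (fragments scaled to transcript length and to the mapped fragments of the sample) over the 12 samples, as did 15288 genes of the table. The skin came from wild-type male BALB/c mice of 5 to 6 weeks, whose backs were shaved and which were sampled on day 10. In the control group the back was coated with petroleum jelly (4 samples). In the IMQ + NS group it was coated for 6 h with cream containing imiquimod (IMQ), a Toll-like receptor 7 agonist that causes psoriasis-like lesions, and then covered with saline (NS) under gauze and film (4 samples). In the IMQ + BZLF group the saline was replaced by Banzhilian formula (BZLF), a mixture of traditional Chinese medicinal materials used for psoriasis (4 samples). Per the paper, all treatments were repeated once daily over 10 days. The dose of BZLF in the sequenced samples was not stated in the sources used here. The control group differed from the IMQ + NS group in the cream base as well as in imiquimod, and no saline cover is described for it, so these effects cannot be told apart.

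Inflammasomes are protein complexes that assemble in the cytosol after a sensor has met microbial products or signs of cell damage. The sensor recruits the adaptor ASC, encoded by Pycard, which clusters and activates caspase-1, and this protease cuts the precursors of interleukin-1β and interleukin-18 and the pore-forming protein gasdermin D. Some sensors are scarce until a priming signal, often through Toll-like receptors and NF-kappa B, raises their transcription, whereas keratinocytes hold interleukin-18 precursor at rest. The values below are transcript levels, so they say nothing of assembly, cleavage or release.

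The FPKM values of each gene were whole multiples of a single value per sample, which gave back the count behind each value for 18494 genes (99.9%) within a tolerance of 0.02 counts. The counts of a sample summed to between 33621919 and 38554545. Tests were run on log2(FPKM + 0.1) with limma over all 15288 genes, with Benjamini-Hochberg adjustment. A gene was called at an adjusted p below 0.05 together with a difference of over 2-fold, and the words rose and fell are used only of called genes. The added constant makes the fold change of low genes too small. The samples held skin as labelled, since the lowest value over the 12 samples was 539 FPKM for Krt5, 405 FPKM for Krt14, 483 FPKM for Krt10 and 829 FPKM for Col1a1. Control replicate 2 stood apart from the other controls, with a summed level of 1903 FPKM for 11 hair shaft and inner root sheath genes against 24.2 to 66.4 FPKM. The same sum was 11360 to 20548 FPKM in the 8 samples of the imiquimod groups, so hair transcripts differed between controls and both other groups. IMQ + BZLF replicate 1 had the highest such sum of its group (20548 FPKM) and the lowest sum of 13 macrophage and monocyte genes (845 FPKM against 1174 to 1280 FPKM). Results that changed without either sample are given both ways. Nothing in the labels says whether the samples of a group came from separate mice, so the p-values measure only the spread between these samples.

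Promoter sequences are shown for the 3 genes that were called in a comparison, because priming acts on transcription. Each line holds the 250 bases before a RefSeq transcript start (build GRCm38.p6), and capitals mark matches to an NF-kappa B, AP-1 or IRF motif. Nlrp3 is shown for the more upstream of its 2 RefSeq starts (chr11:59541319-59541568, plus strand), Pycard for its single start (chr7:127993868-127994117, minus strand) and Casp4 for the first of 2 overlapping windows (chr9:5308599-5308848, plus strand).
Nlrp3: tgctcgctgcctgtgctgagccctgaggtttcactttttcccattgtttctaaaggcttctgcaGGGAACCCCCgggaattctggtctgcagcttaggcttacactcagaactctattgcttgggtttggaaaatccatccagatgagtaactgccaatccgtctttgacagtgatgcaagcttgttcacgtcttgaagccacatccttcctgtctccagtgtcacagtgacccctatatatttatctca
Pycard: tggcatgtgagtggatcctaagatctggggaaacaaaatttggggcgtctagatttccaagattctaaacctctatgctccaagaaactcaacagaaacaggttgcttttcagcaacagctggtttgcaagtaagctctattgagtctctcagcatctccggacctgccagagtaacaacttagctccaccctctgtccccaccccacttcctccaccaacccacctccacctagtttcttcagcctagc
Casp4: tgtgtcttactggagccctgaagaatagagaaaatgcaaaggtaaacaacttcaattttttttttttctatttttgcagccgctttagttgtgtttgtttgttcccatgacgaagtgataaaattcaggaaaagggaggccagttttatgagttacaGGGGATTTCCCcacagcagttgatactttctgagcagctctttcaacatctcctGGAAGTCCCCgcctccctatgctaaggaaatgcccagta
Nlrp3 held 1 match to the NF-kappa B motif, 186 to 177 bases before the start, and none before its other start. Casp4 held an overlapping pair of matches, at 93 to 84 and 92 to 83 bases, and a further match 39 to 30 bases before the start. Pycard held no match to the 3 motifs in capitals. On both strands of 18102 promoter windows of the same length, the NF-kappa B motif was found in 8.66% of windows, the AP-1 motif TGANTCA in 5.52%, the IRF motif (GAAA, any 2 bases, GAAA) in 2.71%, the STAT motif TTCNNNGAA in 6.25% and the C/EBP motif TTNNGNAA in 31.3%. None of the windows of the 7 genes with an entry matched the AP-1, IRF or STAT motif, and the C/EBP motif was found in the windows of Nlrp3, Nlrc4, Aim2, Pycard and Casp4. A match gives only the letters and is no evidence of binding.

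The genes lay on 5 chromosomes in the GRCm38 annotation. The caspase genes were neighbours, with Casp1 at chr9:5298517-5307265 and Casp4 at chr9:5308828-5336783, and Il18 was on the same chromosome at chr9:50554827-50581840. Pycard (chr7:127989708-127993867) and Nlrp10 (chr7:108921852-108930178) shared a chromosome. Nlrp3 was at chr11:59541568-59566956, Nlrc4 at chr17:74425438-74459142 and Aim2 at chr1:173350879-173466040. The exons of Pycard overlapped those of Gm45205 on the opposite strand, which had no row in the table, and without a stated strand setting the reads of this pair cannot be told apart.

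In control skin the effector genes were expressed far above 3 of the 4 sensors. Casp1 had the highest mean (21.8 FPKM), followed by Pycard (15.7 FPKM), Casp4 (11.1 FPKM), Il18 (10.6 FPKM) and the sensor Nlrp10 (6.75 FPKM), while Aim2 (0.544 FPKM), Nlrc4 (0.533 FPKM) and Nlrp3 (0.17 FPKM) were low. Neighbours in this order whose samples overlapped were Casp4 with Il18, Il18 with Nlrp10, Aim2 with Nlrc4 and Nlrc4 with Nlrp3. In the IMQ + NS group Pycard (34.3 FPKM) stood above Casp1 (19.6 FPKM) with no overlap between their samples. There the order went on with Il18 (9.23 FPKM), Casp4 (5.99 FPKM), Nlrp10 (4.01 FPKM), Nlrp3 (0.835 FPKM), Aim2 (0.758 FPKM) and Nlrc4 (0.628 FPKM). Of these, Il18 overlapped with Casp4, Nlrp3 with Aim2 and Aim2 with Nlrc4. In the IMQ + BZLF group Pycard (20.4 FPKM) and Casp1 (18.1 FPKM) overlapped, and Nlrp3 (0.0957 FPKM) was lowest with no overlap with Nlrc4 (0.392 FPKM). Between them stood Il18 (8.17 FPKM), Nlrp10 (5.0 FPKM) and Casp4 (4.79 FPKM), each overlapping with the next, and Aim2 (0.555 FPKM), which overlapped with Nlrc4. The plot of FPKM by sample shows these levels.

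**Figure D1:**
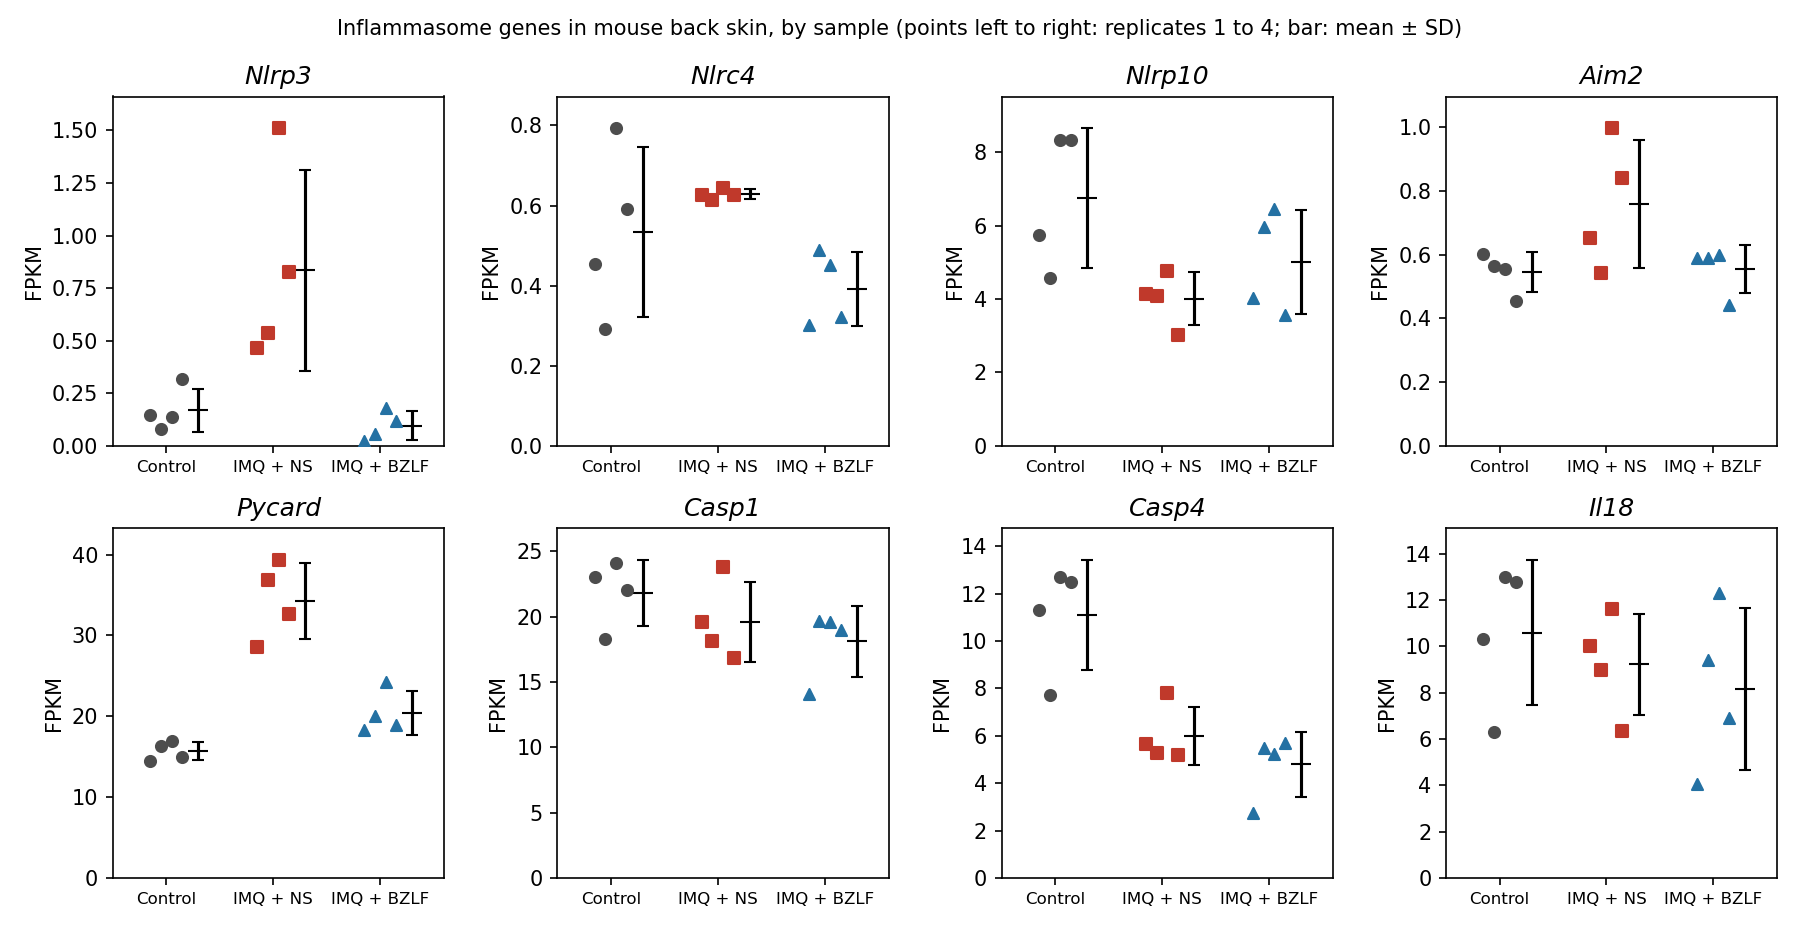
FPKM (vertical axis, from 0, a separate scale for each gene) of the 8 inflammasome genes in each of the 3 groups, with 1 point per sample in the order of replicates 1 to 4 and a bar for the mean ± SD (n = 4). The IMQ + NS samples of Nlrp3 (0.464 to 1.51 FPKM) and Pycard (28.6 to 39.3 FPKM) lie above all samples of both other groups, while those of Casp1 and Il18 overlap with both.

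Psoriasis-like lesions were compared with normal skin in the IMQ + NS and control groups. Of the 8 genes, Nlrp3 and Pycard rose, a count of 2 where 11.4% of all genes tested rose, and 0 fell, where 11.0% of all genes fell. The same 2 genes had IMQ + NS samples that all lay above all controls, a pattern of 23.7% of all genes tested, and 0 of the 8 lay wholly below, a pattern of 25.7%. With the adjusted p alone, 2 were higher and 2 (Nlrp10 and Casp4) were lower, where 29.0% and 27.1% of all genes were. The median log2 difference was 0.05 for the 8 genes and 0.05 for all genes.

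The effect of BZLF on lesions was read from the IMQ + BZLF and IMQ + NS groups. Nlrp3 fell, 1 of the 8 genes where 2.20% of all genes fell, and 0 rose, where 0.321% of all genes rose. The IMQ + BZLF samples of Nlrp3, Nlrc4 and Pycard lay below all IMQ + NS samples, 3 of the 8 genes against 10.9% of all genes, and 0 lay wholly above, against 4.24%. With the adjusted p alone, 2 (Nlrp3 and Pycard) were lower, where 5.17% of all genes were, and 0 were higher, where 1.28% were. The median log2 difference was -0.36 for the 8 genes and -0.02 for all genes. In the IMQ + BZLF group against the control group Casp4 fell, 1 of the 8 where 10.1% of all genes fell, and 0 rose, where 9.65% rose. There the medians were -0.37 and -0.02, and Casp4 lay wholly below the controls (28.1% of all genes) and Pycard wholly above (19.4%). With the adjusted p alone, Casp4 was lower and Pycard higher, 1 of the 8 each, where 29.2% and 23.8% of all genes were. The comparisons share samples in pairs, the IMQ + NS samples in the first and second, so their values are not independent of each other. The plot of log2 fold changes sets the 3 comparisons side by side.

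**Figure D2:**
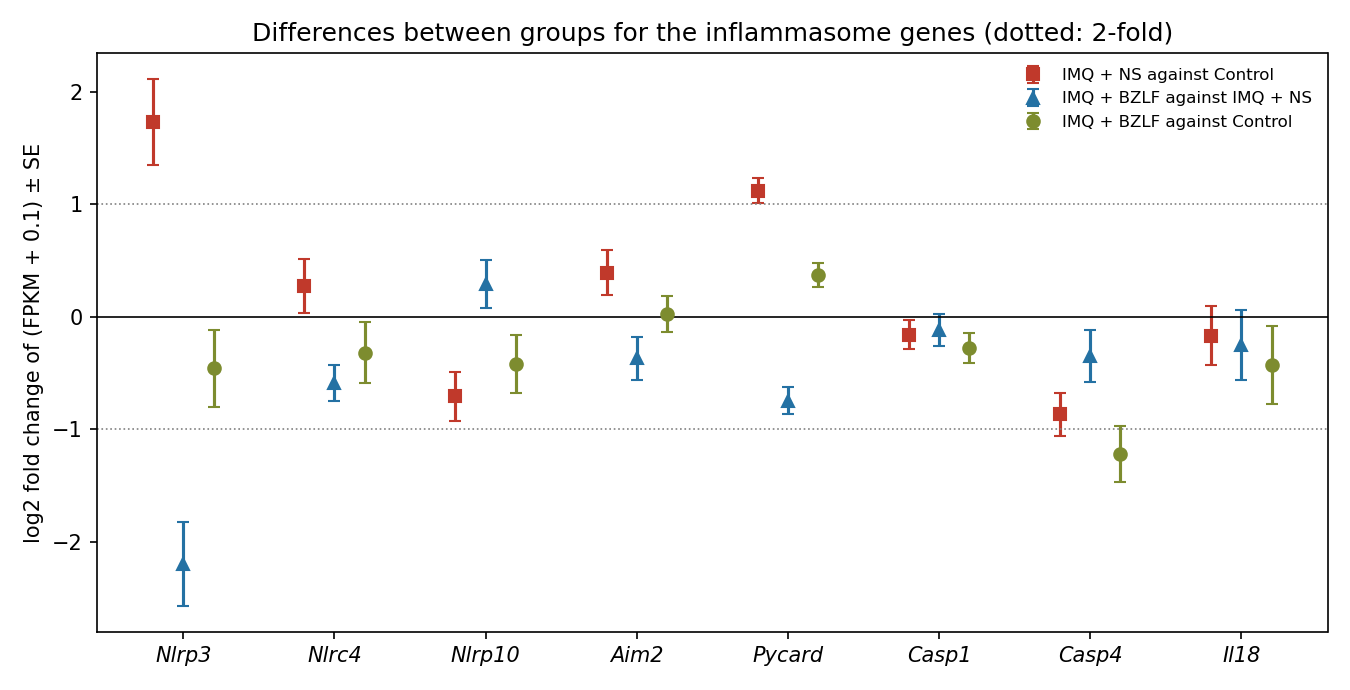
Log2 fold change of (FPKM + 0.1) ± SE (vertical axis) of each of the 8 genes in 3 comparisons of 4 samples against 4, with dotted lines at 2-fold. In IMQ + NS against control only Nlrp3 (1.73) and Pycard (1.12) lie above the upper line, in IMQ + BZLF against IMQ + NS only Nlrp3 (-2.20) lies below the lower line, and in IMQ + BZLF against control only Casp4 (-1.22) does.

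Nlrp3 encodes the sensor that responds to potassium efflux and damage to membranes and organelles. In control skin its level was 0.147, 0.0798, 0.138 and 0.316 FPKM in replicates 1 to 4, which rested on 24, 13, 22 and 50 counts. In the IMQ + NS group it was 0.464, 0.539, 1.51 and 0.826 FPKM (76, 84, 248 and 135 counts), and in the IMQ + BZLF group it was 0.0253, 0.0575, 0.18 and 0.12 FPKM (4, 9, 29 and 20 counts). The lowest IMQ + NS sample was above the highest of the controls and of the IMQ + BZLF samples, and IMQ + BZLF samples overlapped with controls. Nlrp3 rose in the IMQ + NS group against the control group by a log2 fold change of 1.73 (SE 0.38, adjusted p = 0.00457 from limma), and the ratio of the mean FPKM was 4.91. It fell by 2.20 on the log2 scale in the IMQ + BZLF group against the IMQ + NS group (SE 0.37, adjusted p = 0.0116 from limma), and the mean of the IMQ + NS group was 8.73 times that of the IMQ + BZLF group. Between the IMQ + BZLF and control groups the log2 difference was -0.46 (SE 0.34, adjusted p = 0.277 from limma). With 1 added in place of 0.1, the log2 differences of Nlrp3 shrank to 0.62 and -0.71 and were no longer over 2-fold. With limma-voom on the counts, an alternative chosen after seeing the data, they were 2.29 (adjusted p = 0.00692) and -3.24 (adjusted p = 0.0248).

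Pycard encodes ASC, the adaptor that links sensors to caspase-1. Its level in replicates 1 to 4 was 14.5, 16.3, 16.9 and 15 FPKM in control skin, 28.6, 36.8, 39.3 and 32.6 FPKM in the IMQ + NS group and 18.3, 20, 24.3 and 18.9 FPKM in the IMQ + BZLF group, each value resting on at least 1239 counts. The 3 groups did not overlap in any pair, with controls lowest, IMQ + NS samples highest and IMQ + BZLF samples between them. Pycard rose in the IMQ + NS group against the control group by a log2 fold change of 1.12 (SE 0.11, adjusted p = 7.3e-05 from limma). It stood close to the 2-fold limit, since the value was 0.98 with the samples scaled to equal sums and 0.99 after quantile normalization, at adjusted p of 0.000111 and 0.00013. The IMQ + BZLF group was lower than the IMQ + NS group by a log2 difference of -0.75 (SE 0.12, adjusted p = 0.00904 from limma) and higher than the control group by 0.37 (SE 0.11, adjusted p = 0.0176 from limma), neither of which reached 2-fold. The last difference had an adjusted p of 0.0635 with equal sums, 0.0555 after quantile normalization and 0.0509 without control replicate 1.

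Neutrophil transcripts moved with Nlrp3 and Pycard. Neutrophils are granulocytes that enter psoriasis-like lesions and are known to express inflammasome genes. Of 12 neutrophil genes, all 12 rose in the IMQ + NS group against the control group and all 12 fell in the IMQ + BZLF group against the IMQ + NS group, with medians of 2.94 and -2.78 on the log2 scale. Their summed level was 15.2 to 20.2 FPKM in control, 1565 to 2748 FPKM in IMQ + NS and 93.2 to 502 FPKM in IMQ + BZLF samples, but most of it in the imiquimod groups came from Stfa3, one of the stefin A genes, which are close copies of each other. Stfa3 had means of 8.03, 1960 and 281 FPKM in the 3 groups. Without the 3 stefin A genes, a choice made after their share was seen, the sum was 6.84 to 11.0 FPKM in control, 32.8 to 81.0 FPKM in IMQ + NS and 4.72 to 8.95 FPKM in IMQ + BZLF samples. The receptor gene Cxcr1 was at 0 in all controls. In IMQ + NS replicates 1 to 4 this sum was 32.8, 36.9, 81.0 and 53.8 FPKM, the same order as for Nlrp3, whereas Pycard was higher in replicate 2 than in replicate 4. Some other immune markers also stood highest in IMQ + NS samples. The sum of 6 B cell genes was 1.01 to 2.42, 4.15 to 5.79 and 1.21 to 2.84 FPKM in the 3 groups. The macrophage gene Adgre1 had means of 28.6, 46 and 18.1 FPKM. Of the 13 genes of its list, 0 rose in IMQ + NS against control, where 11.4% of all genes did. Against IMQ + NS, 1 of the 13 fell after BZLF and 7 lay wholly below, where 2.20% and 10.9% of all genes did. The part of neutrophils or of these other cells in the values of Nlrp3 and Pycard was not tested. In these bulk samples fewer cells of a type and less RNA per cell cannot be told apart. Pycard lay above the controls in all 4 IMQ + BZLF samples. The neutrophil sums of these samples overlapped with those of controls without stefins. With all 12 genes they lay above those of controls (93.2 to 502 against 15.2 to 20.2 FPKM). Of the 12 genes, 3 rose and 1 fell in the IMQ + BZLF group against the control group. The plot of marker sums shows these and other cell types.

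**Figure D3:**
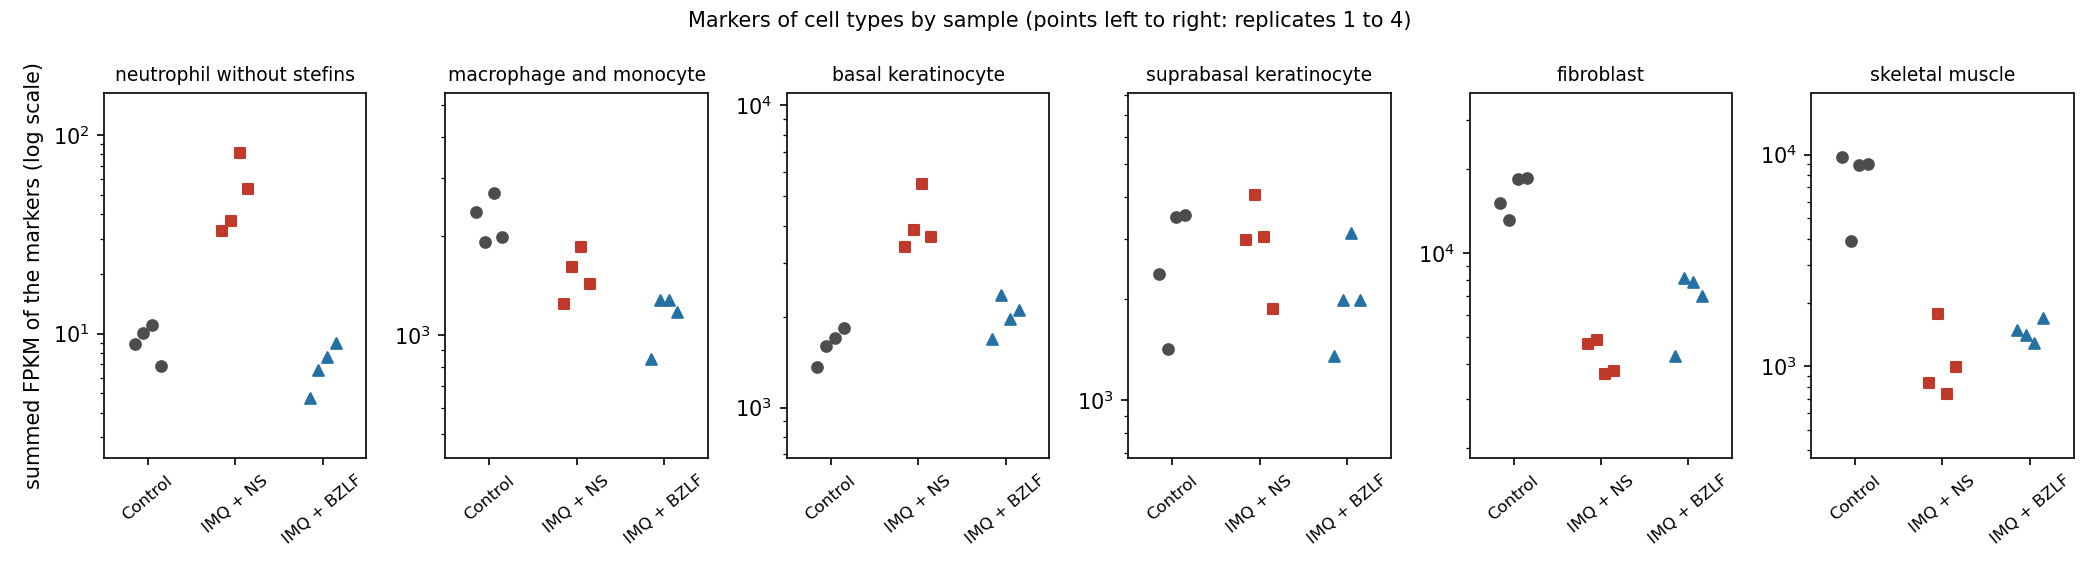
Summed FPKM (vertical axis, logarithmic, a separate scale for each panel) of marker genes of 6 cell types in each control, IMQ + NS and IMQ + BZLF sample, with 1 point per sample in the order of replicates 1 to 4. Neutrophil sums without stefins of IMQ + NS samples (32.8 to 81.0 FPKM) lie above all others, and macrophage and monocyte sums of IMQ + NS samples (1239 to 1848 FPKM) lie below those of controls (1920 to 2703 FPKM).

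Some keratinocyte transcripts also moved with Pycard. Keratinocytes, the main cells of the epidermis, are known to express ASC. The summed level of 7 basal keratinocyte genes was 1361 to 1833 FPKM in control, 3387 to 5476 FPKM in IMQ + NS and 1684 to 2362 FPKM in IMQ + BZLF samples. Of the 7 genes, 3 rose in the IMQ + NS group against the control group and 1 fell in the IMQ + BZLF group against the IMQ + NS group, and none was at 0 in all samples of a group. Krt15 of this list went the other way, with means of 387 FPKM in control, 217 FPKM in IMQ + NS and 259 FPKM in IMQ + BZLF samples. Of 4 hyperproliferative keratinocyte genes (Krt6a, Krt6b, Krt16 and Krt17), all 4 rose in both imiquimod groups against controls and 3 fell in the IMQ + BZLF group against the IMQ + NS group. Their sum was 190 to 616 FPKM in control, 2344 to 4207 FPKM in IMQ + NS and 1140 to 1392 FPKM in IMQ + BZLF samples. In this sum, as for Pycard, the 3 groups did not overlap and the IMQ + BZLF samples stood between the others. Most of it in control and IMQ + BZLF samples came from Krt17, with means of 310, 1569 and 1143 FPKM in the 3 groups. For Krt17 alone, IMQ + BZLF samples (1026 to 1239 FPKM) overlapped with IMQ + NS samples (1214 to 1921 FPKM). The 10 suprabasal keratinocyte genes did not follow Pycard, since 4 rose and 3 fell in the IMQ + NS group against the control group, 2 rose and 0 fell in the IMQ + BZLF group against the IMQ + NS group, and their sums overlapped between all groups (1421 to 3537, 1858 to 4038 and 1352 to 3128 FPKM). The part of keratinocytes in the values of Pycard was not tested.

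Casp4 encodes caspase-11, which binds bacterial lipopolysaccharide in the cytosol and cuts gasdermin D. In replicates 1 to 4 its level was 11.3, 7.72, 12.7 and 12.5 FPKM in control skin, 5.67, 5.29, 7.81 and 5.2 FPKM in the IMQ + NS group and 2.76, 5.5, 5.23 and 5.69 FPKM in the IMQ + BZLF group. Controls were highest, and they overlapped with the IMQ + NS samples only through control replicate 2 (7.72 FPKM) and IMQ + NS replicate 3 (7.81 FPKM), whereas all IMQ + BZLF samples lay below all controls. Casp4 was lower in the IMQ + NS group than in the control group by a log2 difference of -0.87 (SE 0.19, adjusted p = 0.00484 from limma), short of 2-fold. Without control replicate 2 the difference was -1.03 (adjusted p = 0.000344 from limma), and after quantile normalization it was -1.02 (adjusted p = 0.00509 from limma), both over 2-fold. Against the control group, Casp4 fell by 1.22 on the log2 scale in the IMQ + BZLF group (SE 0.25, adjusted p = 0.00415 from limma), but without IMQ + BZLF replicate 1, the lowest sample, the difference was -0.97 (adjusted p = 0.00438 from limma) and no longer over 2-fold. Between the IMQ + BZLF and IMQ + NS groups it was -0.35 (SE 0.23, adjusted p = 0.411 from limma), and -0.11 without IMQ + BZLF replicate 1.

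The sum of macrophage and monocyte markers was also lower after imiquimod, at 1920 to 2703 FPKM in control, 1239 to 1848 FPKM in IMQ + NS and 845 to 1280 FPKM in IMQ + BZLF samples. Of the 13 markers, 1 fell in the IMQ + NS group and 5 fell in the IMQ + BZLF group, each against the control group, and none was at 0 in all samples of a group. Of 7 fibroblast markers, 5 fell in each imiquimod group against the control group, and their sum was 13098 to 18662 FPKM in control, 3695 to 4902 FPKM in IMQ + NS and 4294 to 8122 FPKM in IMQ + BZLF samples, while Pdgfra stood at means of 16, 15.3 and 14.5 FPKM. All 8 skeletal muscle markers fell in each imiquimod group, with sums of 3921 to 9717, 737 to 1763 and 1293 to 1691 FPKM, and control replicate 2 was the control at 3921 FPKM. Of 7 adipocyte markers, 4 were called lower than in controls after IMQ + NS and 3 after IMQ + BZLF, with sums of 929 to 1932, 464 to 706 and 666 to 767 FPKM. Hair transcripts were far higher in both imiquimod groups, and control replicate 2, the control with the most of them, was the lowest control for Casp4. The part of these cells in the values of Casp4 was not tested, nor was it for Nlrp10, whose lowest control was the same sample.

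Casp1 encodes the protease that canonical inflammasomes activate. Its level in replicates 1 to 4 was 23.0, 18.3, 24.1 and 22.0 FPKM in control skin, 19.6, 18.1, 23.8 and 16.8 FPKM in the IMQ + NS group and 14.1, 19.7, 19.6 and 19.0 FPKM in the IMQ + BZLF group. The groups overlapped in every pair, and the SD was 11.5% to 15.6% of the mean in the 3 groups. Casp1 passed the main test in no comparison. The log2 difference was -0.16 for IMQ + NS against control (SE 0.13, adjusted p = 0.307 from limma), -0.12 for IMQ + BZLF against IMQ + NS (SE 0.14, adjusted p = 0.655 from limma) and -0.28 for IMQ + BZLF against control (SE 0.13, adjusted p = 0.111 from limma). Over the alternative settings the adjusted p from limma of the last difference ranged from 0.0301 to 0.246, and the difference stayed under 2-fold.

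Il18 encodes interleukin-18, the cytokine whose precursor caspase-1 cuts. It was measured at 10.3, 6.3, 13 and 12.8 FPKM in control replicates 1 to 4, at 10, 8.99, 11.6 and 6.36 FPKM in IMQ + NS samples and at 4.07, 9.43, 12.3 and 6.9 FPKM in IMQ + BZLF samples. The 3 groups overlapped in every pair, and the spread of IMQ + BZLF samples was widest, with an SD of 42.9% of the mean. Il18 differed by -0.17 on the log2 scale between IMQ + NS and control (SE 0.26, adjusted p = 0.587 from limma), by -0.25 between IMQ + BZLF and IMQ + NS (SE 0.31, adjusted p = 0.68 from limma) and by -0.43 between IMQ + BZLF and control (SE 0.35, adjusted p = 0.329 from limma). The second value turned to 0.04 without IMQ + BZLF replicate 1.

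Nlrp10 encodes an NLR protein without leucine-rich repeats that is found in the epidermis. Its level in replicates 1 to 4 was 5.73, 4.58, 8.34 and 8.33 FPKM in control skin, 4.13, 4.09, 4.77 and 3.02 FPKM in the IMQ + NS group and 4.03, 5.95, 6.46 and 3.57 FPKM in the IMQ + BZLF group. The highest IMQ + NS sample (4.77 FPKM) reached above the lowest control (4.58 FPKM), and the IMQ + BZLF samples overlapped with both groups. Nlrp10 was lower in the IMQ + NS group than in the control group by a log2 difference of -0.71 (SE 0.22, adjusted p = 0.0231 from limma), under 2-fold. The adjusted p was 0.0643 without control replicate 3, 0.0637 without control replicate 4 and 0.064 without IMQ + NS replicate 4. The differences of the IMQ + BZLF group were 0.29 from IMQ + NS (SE 0.21, adjusted p = 0.454 from limma) and -0.42 from control (SE 0.26, adjusted p = 0.189 from limma). Of the 4 sensors, Nlrp10 alone had a mean above 1 FPKM in these groups.

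Nlrc4 encodes the sensor that NAIP proteins activate when they bind flagellin or parts of bacterial secretion systems. It stood at 0.453, 0.293, 0.793 and 0.592 FPKM in control replicates 1 to 4 (74, 48, 127 and 94 counts), at 0.626, 0.613, 0.644 and 0.627 FPKM in IMQ + NS samples (103, 96, 106 and 103 counts) and at 0.302, 0.49, 0.452 and 0.322 FPKM in IMQ + BZLF samples (48, 77, 73 and 54 counts). The IMQ + NS samples were close together, with an SD of 2.02% of the mean, and lay above all IMQ + BZLF samples, while controls spanned both groups. Although these groups did not overlap, the difference of -0.59 on the log2 scale between IMQ + BZLF and IMQ + NS (SE 0.16, adjusted p = 0.0698 from limma) did not pass the test, while its adjusted p was 0.0448 without trend moderation. The log2 difference was 0.27 between IMQ + NS and control (SE 0.24, adjusted p = 0.377 from limma) and -0.32 between IMQ + BZLF and control (SE 0.27, adjusted p = 0.346 from limma).

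Aim2 encodes the sensor of double-stranded DNA in the cytosol. The gene lies in a cluster of related genes between which reads can be shared, so its values are less certain. Its level in replicates 1 to 4 was 0.602, 0.563, 0.556 and 0.455 FPKM in control skin, 0.653, 0.542, 0.996 and 0.839 FPKM in the IMQ + NS group and 0.59, 0.59, 0.6 and 0.441 FPKM in the IMQ + BZLF group. IMQ + NS replicates 3 and 4 were the highest samples, and replicate 2 lay within the controls. The log2 difference of Aim2 was 0.39 between IMQ + NS and control (SE 0.20, adjusted p = 0.123 from limma), -0.37 between IMQ + BZLF and IMQ + NS (SE 0.19, adjusted p = 0.294 from limma) and 0.02 between IMQ + BZLF and control (SE 0.16, adjusted p = 0.923 from limma). The last value turned to -0.07 with the samples scaled to equal sums.

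Replicates of a group varied together for some of the genes. After the group means were taken off, log2 levels of Casp1 and Casp4 had a Pearson correlation of 0.95 over the 12 samples, Casp1 and Il18 of 0.88, Nlrp10 and Il18 of 0.87, Casp4 and Il18 of 0.85 and Nlrc4 and Nlrp10 of 0.83. Control replicate 2 and IMQ + BZLF replicate 1, which held the most hair transcripts of their groups, were the lowest of their groups for Casp1, Casp4 and Il18. Without these 2 samples, over the remaining 10, the values were 0.88, 0.66, 0.93, 0.47 and 0.74 in the same order. Aim2 had correlations of 0.00 to 0.08 with Il18, Nlrc4, Casp4 and Nlrp10 over the 12 samples and of 0.20 to 0.44 over the 10. The points share the library and its cell composition, and the values are given as a description.

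The genes whose pattern was most like that of each member were sought by the Pearson correlation of log2 levels over all 12 samples, among genes with a mean of at least 1 FPKM. Nlrp3 was most like Slc5a9 (0.963), Gm6551 (0.959) and Cxcl16 (0.956). Pycard was most like Serpinb3a (0.983), Teddm3 (0.977) and the acute phase gene Saa3 (0.974). Genes like Casp4 included Uba7 (0.975) and Prkcb (0.975), and Casp1 was most like Asah2 (0.930), Lipa (0.923) and Tnfrsf14 (0.901). Nlrp10 was most like Aif1l (0.972), Tdo2 (0.939) and Dkkl1 (0.936), and Il18 like Hebp2 (0.901), Aloxe3 (0.898) and Ubtd1 (0.886). Nlrc4 was most like Ms4a6b (0.894), Cndp2 (0.892) and Wfdc5 (0.891), and Aim2 like Spp1 (0.867), Mcts1 (0.860) and Ralb (0.852). These values include the difference between the groups, which a large share of all genes has.

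The rest of the pathway was read from lists of 57 genes, of which 56 were in the table and 54 were tested. The lists include 3 genes that the study named around lipocalin-2, Lcn2, Mmp9 and Srebf2. The study had picked Lcn2 and Mmp9 on these samples, so their calls are not independent evidence. In the IMQ + NS group against the control group 7 of the 54 rose, Lcn2 among them, and 4 fell, where 11.4% and 11.0% of all genes tested did. In the IMQ + BZLF group against the IMQ + NS group 0 rose and 8 fell, 2 of them Lcn2 and Mmp9, where 0.321% and 2.20% of all genes did. In the IMQ + BZLF group against the control group 4 rose and 9 fell, Mmp9 among the latter, where 9.65% and 10.1% of all genes did. The last total of 13 was 7 without IMQ + BZLF replicate 1, 8 without control replicate 1 and 18 without control replicate 2 or IMQ + BZLF replicate 4. The median log2 differences in these comparisons were 0.00, -0.30 and -0.47, against 0.05, -0.02 and -0.02 for all genes.

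Of the cytokines that caspase-1 processes, Il1b was called in all 3 comparisons and Il18 in none. Il1b, which encodes interleukin-1β, was at 5.08, 5.51, 5.66 and 6.44 FPKM in control replicates 1 to 4, at 12, 17.2, 55.1 and 29.7 FPKM in IMQ + NS samples and at 1.44, 1.82, 2.02 and 3.01 FPKM in IMQ + BZLF samples. The groups did not overlap in any pair, and the 4 IMQ + NS samples stood in the same order as for Nlrp3. Il1b rose in the IMQ + NS group against the control group by a log2 fold change of 2.07 (SE 0.41, adjusted p = 0.00267 from limma), fell by 3.53 in the IMQ + BZLF group against the IMQ + NS group (SE 0.43, adjusted p = 0.00348 from limma) and fell by 1.45 in the IMQ + BZLF group against the control group (SE 0.20, adjusted p = 6.2e-04 from limma). Whether Il18 differed from Il1b in its response was not tested. Il1a, the other interleukin-1, rose in the IMQ + NS group from 1.18 ± 0.331 (SD, n = 4) to 4.86 ± 0.935 FPKM and stood at 3.88 ± 0.284 FPKM in the IMQ + BZLF group, a log2 difference of -0.30 from IMQ + NS (adjusted p = 0.248 from limma). Gsdmd, which encodes gasdermin D and was picked after its values had been seen, was lower than in controls by a log2 difference of -0.71 in the IMQ + NS group (adjusted p = 0.00186 from limma) and -0.92 in the IMQ + BZLF group (adjusted p = 0.00461 from limma), both under 2-fold.

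Of the 9 output and receptor genes, 3 (Il1a, Il1b and Il18rap) rose in IMQ + NS against control and 0 fell. Of all genes, 11.4% rose and 11.0% fell there. With the adjusted p alone, 3 of the 9 were higher and 3 lower, where 29.0% and 27.1% of all genes were. Il18rap, the accessory chain of the interleukin-18 receptor, had means of 0.35, 1.11 and 0.414 FPKM in control, IMQ + NS and IMQ + BZLF samples, and its log2 fold change was 1.46 from control to IMQ + NS and -1.24 from IMQ + NS to IMQ + BZLF. Il18r1, the other chain, fell by 1.10 on the log2 scale in the IMQ + BZLF group against the control group, from 1.45 to 0.618 FPKM. Among 8 inhibitors, Il1rn, the interleukin-1 receptor antagonist, rose in the IMQ + NS group against the control group by 1.64 and was at 7.23, 22.5 and 15.5 FPKM in the 3 groups, while Il1r2, the decoy receptor, fell by 2.08 and was at 33.9, 7.76 and 9.12 FPKM.

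Of the 10 other sensors tested, Naip1 rose and Ifi204 fell in the IMQ + NS group against the control group, and Nlrp12, Mefv and Nod2 fell in the IMQ + BZLF group against the IMQ + NS group. Nod2, which senses muramyl dipeptide of bacterial cell walls, had means of 1.11, 2.18 and 0.493 FPKM in control, IMQ + NS and IMQ + BZLF samples, and its log2 fold change after BZLF was -1.94 (adjusted p = 0.00478 from limma). Mefv, which encodes pyrin, was at 0.672, 1.12 and 0.301 FPKM (log2 fold change -1.53). Nlrp12, an NLR close to Nlrp3, was at 0.113, 0.323 and 0.0375 FPKM (log2 fold change -1.56). The IMQ + BZLF samples of Nlrp12 rested on only 4 to 11 counts and lay below the added constant of 0.1 FPKM. In all 3 of these genes, as in Nlrp3, the highest sample was IMQ + NS replicate 3, with 3.07 FPKM for Nod2, 1.63 FPKM for Mefv and 0.531 FPKM for Nlrp12. Naip1 belongs to a family of close copies, so that its counts are uncertain, and its controls rested on only 1 to 5 counts. It had means of 0.0154, 0.179 and 0.252 FPKM and rose in both imiquimod groups against controls. Ifi204, an interferon-inducible relative of Aim2, fell by 1.34 in the IMQ + NS group and by 1.04 in the IMQ + BZLF group against the control group.

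Of the 12 priming genes, 0 were called in the IMQ + NS group against the control group, where 11.4% of all genes rose and 11.0% fell. With the adjusted p alone, 3 were higher and 3 lower there, where 29.0% and 27.1% of all genes were. Tnf, an NF-kappa B target and inducer, fell by 1.93 on the log2 scale in the IMQ + BZLF group against the IMQ + NS group (adjusted p = 0.0108 from limma) and by 2.38 against the control group, with means of 2.35, 1.66 and 0.386 FPKM in control, IMQ + NS and IMQ + BZLF samples. With the adjusted p alone, 5 of the 12 were lower in the IMQ + BZLF group than in the IMQ + NS group, where 5.17% of all genes were, and 0 were higher, where 1.28% were. Besides Tnf, these were the adaptor Myd88 (-0.54), the NF-kappa B subunits Nfkb1 (-0.50) and Rela (-0.21) and the transcription factor Irf8 (-0.55), named after their values had been seen. Of the 12 activation partners, Panx1, a channel that releases ATP, rose in the IMQ + NS group against the control group by 1.24, and the guanylate-binding proteins Gbp2 and Gbp3, which act on pathogen membranes upstream of caspase-11, fell by 1.17 and 1.13. In the IMQ + BZLF group against the IMQ + NS group 0 of these 12 were called, where 0.321% of all genes rose and 2.20% fell. The plot of log2 fold changes of these lists shows both comparisons.

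**Figure D4:**
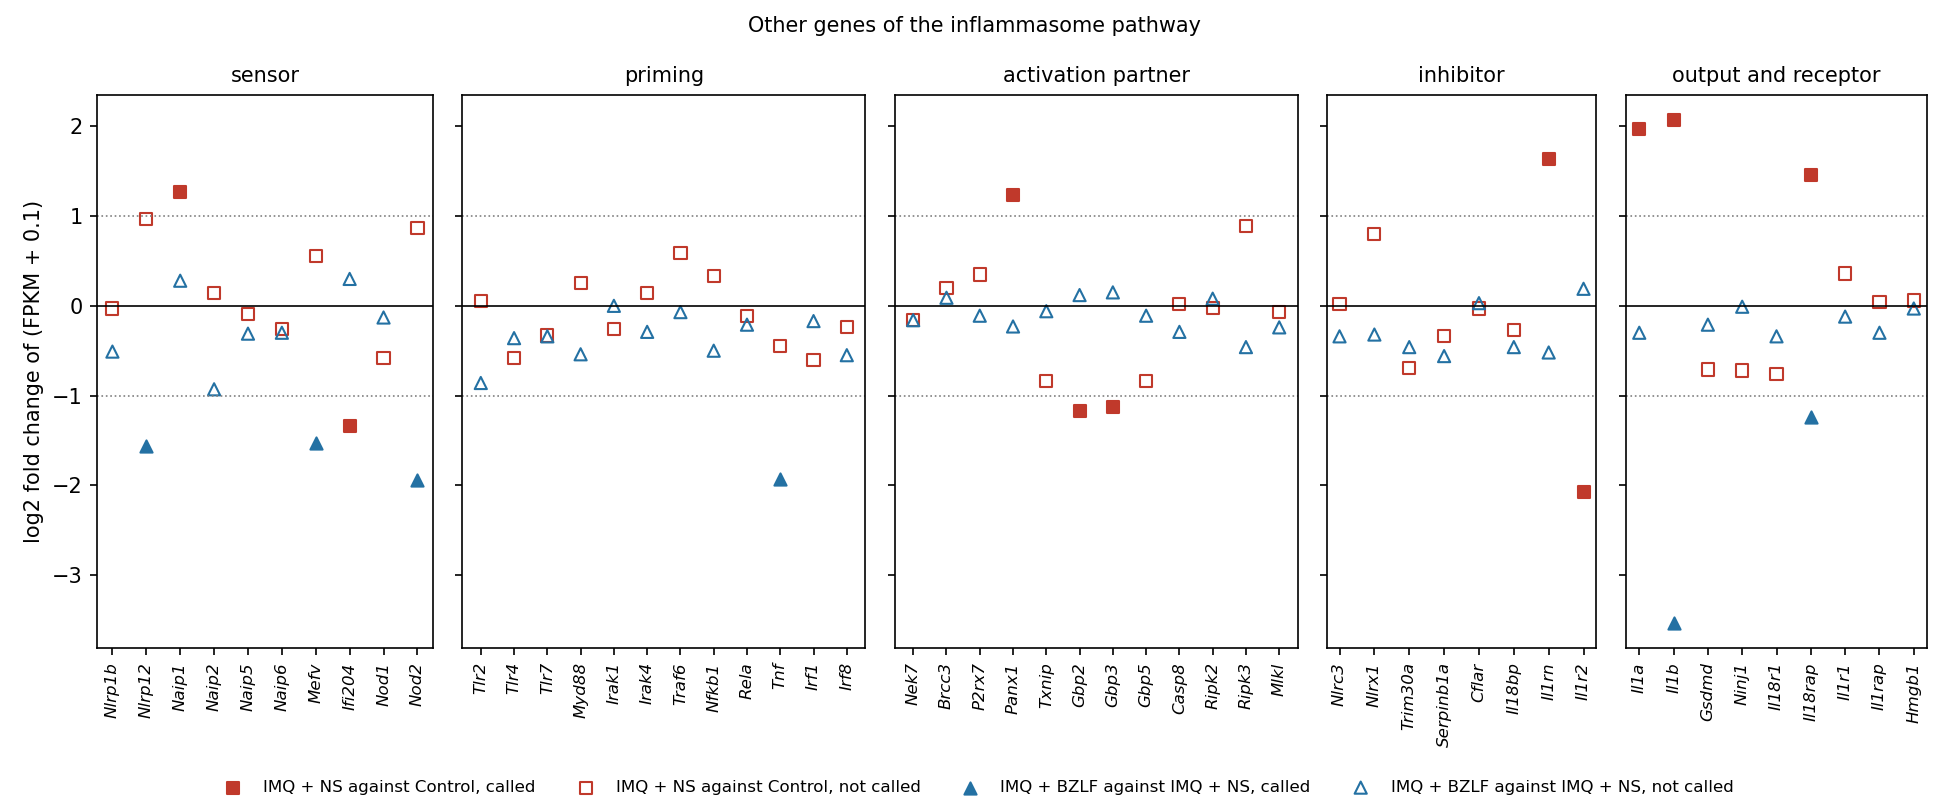
Log2 fold change of (FPKM + 0.1) (vertical axis) of the tested genes of 5 pathway lists in IMQ + NS against control (squares) and IMQ + BZLF against IMQ + NS (triangles), with filled points for called genes and dotted lines at 2-fold. The filled triangles all lie below 0, with Il1b (-3.53) lowest, and the activation partners and inhibitors have none.

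A last list held 3 genes that the study named around lipocalin-2, of which it had picked Lcn2 and Mmp9 on these samples, so that their values are not independent evidence. Lcn2, which encodes an iron-binding antimicrobial protein of neutrophils and keratinocytes, rose from 4.79 to 105 FPKM in the IMQ + NS group and was at 5.28 FPKM in the IMQ + BZLF group, with log2 fold changes of 4.35 and -4.21. Mmp9, a gelatinase, had means of 5.44, 6.28 and 1.13 FPKM in control, IMQ + NS and IMQ + BZLF samples. Its log2 difference was 0.08 between IMQ + NS and control (adjusted p = 0.862 from limma). In the IMQ + BZLF group Mmp9 fell by 2.25 against the IMQ + NS group and by 2.16 against the control group. By RT-PCR and Western blot, the paper reported both LCN2 and MMP-9 as raised in the imiquimod model and lowered by BZLF. Srebf2, a regulator of cholesterol synthesis, had a log2 difference of -0.23 in IMQ + BZLF against IMQ + NS (adjusted p = 0.0916 from limma), beside -0.59 for Nlrc4. The paper stated that neither of these 2 genes was in its list of differentially expressed genes. In IMQ + NS against control the difference of Srebf2 was 0.66 (adjusted p = 0.0049 from limma), under 2-fold.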

How the data were processed

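RNA-seq was made from 12 samples of mouse back skin, 4 in each of 3 groups, which were taken from the sample titles. The authors deposited a table of FPKM values per gene, without counts, and per their methods the reads were mapped with Bowtie2 and quantified with eXpress, whereas the submitters' processing notes name fastp, HISAT2, HTSeq, R 3.2.0 and mm10. Library kits also differ between these sources, so the strand setting of the counting is not known.

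Genes with a mean of at least 0.1 FPKM were tested on log2(FPKM + 0.1) with limma 3.58.1 in R 4.3.3, with trend moderation, each pair of groups fitted separately and Benjamini-Hochberg adjustment over all 15288 genes. Genes were called at an adjusted p below 0.05 and over 2-fold. The fit was tested on simulated data. Tables were handled in Python 3.11.15 with pandas 2.3.3 and numpy 2.4.6, and plots made with matplotlib 3.10.9.

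The genes named were the 8 members, pathway genes called in at least 1 comparison and the 3 genes most like each member, with exceptions marked in the text and 1 gene that is not reported here. The members and lists were chosen with earlier results of these data known. Whole counts were recovered by dividing each FPKM value by what 1 count was worth in that gene and sample, and limma-voom on them, the neutrophil sum without stefins and the correlations without 2 samples were chosen after seeing the data. Positions come from the GRCm38 annotation and promoters from RefSeq (GRCm38.p6), which gave a window for 7 of the 8 members. Alternatives were other added constants, filters and scalings, a single fit of all samples, other moderation, a replicate block, no fold limit and leaving out each sample. Recovered counts cover counting error only, and 0 columns of the table were left out.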

Additional observations from a re-analysis of the deposited data

Results flagged for a closer look

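In 4 of the 78 groups of 4 samples tested, the gap between the lowest or highest sample and the nearest other divided by the range of the group was above Dixon's critical value, where chance gives about 5% of groups. Aim2 was at 0.441 FPKM in IMQ + BZLF replicate 4, below the other 3 samples at 0.59 to 0.6 FPKM. IMQ + BZLF replicate 1 was lowest for both caspase genes, with 14.1 FPKM for Casp1 against 19.0 to 19.7 FPKM and 2.76 FPKM for Casp4 against 5.23 to 5.69 FPKM. Panx1 was at 9.36 FPKM in control replicate 2, above the other controls at 5.09 to 5.73 FPKM.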

How the results depend on the processing

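Of 684 recomputed values, 643 were unchanged by a fixed rule. For the log2 difference of a gene, the rule asked for the same direction and the same side of the threshold. For a count of called genes it asked only for a count within a set ratio of the main count. Single genes may therefore have crossed the threshold in a count taken as unchanged. With 1 added before the logarithm, the genes called numbered 2191 in place of 3418 (IMQ + NS against control), 205 in place of 385 (IMQ + BZLF against IMQ + NS) and 1844 in place of 3017 (IMQ + BZLF against control), members called 1 in place of 2 and 0 in place of 1 in the first and second comparison, and pathway genes 4 in place of 8 and 6 in place of 13 in the comparisons of IMQ + BZLF with IMQ + NS and with control. With a mean of at least 1 FPKM, at which Nlrp3, Nlrc4 and Aim2 were not tested, members called were 1 and 0 in the first and second comparison and pathway genes 5 in the second. With equal sums 1 member was called in the first. Without the fold limit all genes numbered 8569, 986 and 8098, members 4, 2 and 2 and pathway genes 29, 15 and 34. Leaving out 1 sample gave 3090 to 4067, 252 to 405 and 2581 to 3750 genes, 2 to 3, 1 to 1 and 0 to 1 members and 11 to 13, 7 to 9 and 7 to 18 pathway genes. The count of 252 was without IMQ + NS replicate 3, and 0 members and 7 pathway genes without IMQ + BZLF replicate 1. The cause of these changes was not tested, beyond the fewer genes or samples in the test. Signs turned for Il18 in IMQ + BZLF against IMQ + NS (-0.48 to 0.04 on leaving out 1 sample, 0.04 without IMQ + BZLF replicate 1) and for Aim2 in IMQ + BZLF against control (-0.07 with equal sums, -0.05 to 0.11 on leaving out 1 sample, -0.05 and -0.01 where negative), at no adjusted p below 0.05. Higher and lower calls in IMQ + NS against control split 1740 to 1678, and 1463 to 2017 with equal sums, where the median of all genes moved from 0.05 to -0.07 on the log2 scale.

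The labels do not say whether replicate numbers pair the samples, and the main fits did not pair them. The correlation of deviations of same-numbered samples was over 0.1 in 2 of 4 pairs for each pair of groups. These were replicates 3 and 4 each time. The range was -0.15 to 0.18 for IMQ + NS with control, -0.08 to 0.18 for IMQ + BZLF with control and -0.03 to 0.26 for IMQ + BZLF with IMQ + NS. The values do not settle whether same-numbered samples are linked. In these pairs of groups 2, 2 and 3 of 4 samples correlated best with their own number, seen from the control, control and IMQ + NS samples. The 3 includes a tie, since IMQ + NS replicate 1 had 0.09 with both IMQ + BZLF replicates 1 and 2. With a replicate block the genes called were 1730 higher and 1684 lower in IMQ + NS against control, 47 and 335 in IMQ + BZLF against IMQ + NS and 1457 and 1527 in IMQ + BZLF against control, and members called were 2, 1 and 1. Nlrp3 rested on 4 to 50 counts in control and IMQ + BZLF samples, which limits the precision of its level there.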
